A study of Homo sapiens with 108 samples.

Results

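The BCL2 family of apoptosis regulators was followed in 6 human melanoma cell lines through 10 genes: the anti-apoptotic members BCL2, BCL2L1 (BCL-xL), MCL1 and BCL2A1, the pore-forming effectors BAX and BAK1, and the BH3-only members BID, BCL2L11 (BIM), BBC3 (PUMA) and PMAIP1 (NOXA). Every array probe whose annotation gave exactly 1 of these symbols was a member, which gave 10 of the 18278 genes with such a probe and 14 of the 54359 probes: 3 for BAX, 2 each for BCL2L1 and BCL2L11, and 1 for each of the other 7 genes. All 14 passed the filter on low values, which used means over all arrays, irradiated ones included, and BBC3 passed it narrowly. A further 2 probes annotated with a member and a second gene were not used. The genes lie on chromosomes 18 (BCL2 and PMAIP1), 20 (BCL2L1), 1 (MCL1), 15 (BCL2A1), 19 (BAX and BBC3), 6 (BAK1), 22 (BID) and 2 (BCL2L11).

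The lines were MeWo, Colo679, C32TG, HMV-II, HMV-I and 92-1, the last a line from a uveal melanoma. Each line was exposed to 2 Gy of carbon ions, a densely ionizing particle beam, or to 2 Gy of X-rays, with arrays for 1 h and for 3 h after exposure. Each beam had its own unirradiated (0 Gy) arrays in each line. Line, beam and condition gave 36 groups of 3 arrays on single-colour CodeLink whole-genome arrays with biotin-labelled RNA. Whether a group's arrays stand for separate cultures, and when the 0 Gy RNA was taken, is not stated, so p-values within a line cover the spread between arrays, which may be technical. The cells were bulk cultures, in which fewer cells of a kind and less RNA per cell cannot be told apart.

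Proteins of this family decide whether the outer mitochondrial membrane is breached during apoptosis. The anti-apoptotic members hold BAX and BAK1 in check, and the BH3-only members are produced or activated under stress and either block the anti-apoptotic members or engage the effectors directly, after which cytochrome c leaves the mitochondria and caspases are activated. BBC3, PMAIP1 and BAX are well-known targets of p53 after DNA damage, and BCL2A1 is known as a target of MITF, the transcription factor of the melanocyte lineage.

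The 250 bases upstream of the transcription start are shown for the gene whose transcript rose at 3 h with both beams (BAK1), for a BH3-only gene that rose after carbon ions (PMAIP1) and for the gene with the widest spread between lines (BCL2A1). Sequences are from RefSeq on GRCh38.p14, written along the gene's own strand. The BAK1 window is chr6:33580277-33580526 on the minus strand, and capitals mark a match to the p53 consensus decamer that begins 73 bases upstream of the start.
BAK1: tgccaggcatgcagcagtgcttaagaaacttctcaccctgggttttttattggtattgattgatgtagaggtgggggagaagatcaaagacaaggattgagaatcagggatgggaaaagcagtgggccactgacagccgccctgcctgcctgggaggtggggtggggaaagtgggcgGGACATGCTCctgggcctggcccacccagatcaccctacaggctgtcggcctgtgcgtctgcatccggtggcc
The PMAIP1 window is chr18:59899746-59899995 on the plus strand. Its capitals mark the reverse complement of TGACGT, the core of sites bound by CREB and ATF factors, beginning 56 bases upstream.
PMAIP1: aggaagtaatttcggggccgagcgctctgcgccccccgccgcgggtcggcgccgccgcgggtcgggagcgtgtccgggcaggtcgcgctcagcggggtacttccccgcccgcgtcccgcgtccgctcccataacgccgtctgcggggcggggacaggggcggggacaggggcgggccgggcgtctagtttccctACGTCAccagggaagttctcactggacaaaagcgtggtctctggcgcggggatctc
In the BCL2A1 window, chr15:79971197-79971446 on the minus strand, capitals mark CATGTG, an E-box form that MITF can bind, beginning 25 bases upstream.
BCL2A1: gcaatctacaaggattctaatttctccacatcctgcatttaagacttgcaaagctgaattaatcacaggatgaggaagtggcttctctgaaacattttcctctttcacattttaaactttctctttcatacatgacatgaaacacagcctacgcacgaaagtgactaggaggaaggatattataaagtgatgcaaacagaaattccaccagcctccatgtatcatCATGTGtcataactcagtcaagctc
Windows were on hand for 9 of the 10 genes, 14 windows in all, and both strands were searched. The p53 decamer was in 1 of the 9 genes (BAK1) and in 5.57% of all 35116 RefSeq windows of this length, and a pair of decamers 0 to 13 bases apart was in none of the 9 and in 0.0256% of all windows. TGACGT was in 1 gene (PMAIP1) against 7.1% of all windows. CATGTG was in 2 genes (BCL2A1 and BID) against 9.42%, and CACGTG, the other E-box form searched, was in 3 genes (BAX, with 4 matches, BBC3 and BID) against 6.34%. Each window shown held a match to 1 of these motifs, so none overlapped another there. BID and BCL2L1 had several windows each, so counts by gene are not on the same footing as shares by window. A match describes letters in this window and not a bound site.

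The deposited values were spot intensities with a median between 1.02 and 1.32 on each array, so a value near 1 is that of a middling probe. Between 1000 and 8034 probes per array had no value, arrays of a group correlated at Pearson r of 0.987 to 0.998 over the 32060 probes kept, and no 2 arrays were identical. Levels below are quantile-normalized intensities, changes are differences of log2 intensity, and a probe was called at an adjusted p under 0.05 over all kept probes. Of the 10 melanocyte markers, 9 had a probe. MITF read between 118 and 210 in 5 lines and 18.5 in HMV-I, where PMEL (2.54), MLANA (0.513) and TYR (0.696) were also low. In HMV-I 3 of the 9 markers had a line mean above 1, against 7 to 9 in the other lines. These markers did not bear out a melanocytic type in HMV-I. MLANA was 1.45 in C32TG against 442 to 516 in the other 4 lines. Summed over 9 markers, the melanocyte level was 27.5 in HMV-I and 525 to 1860 in the other lines. Probes below the level filter are given as deposited. Leukocyte markers summed to 4.40 to 12.9 over 6 probes, with PTPRC at most 0.522 and CD3D at most 0.662. Of the same list, CD68 ran from 1.19 in C32TG to 4.17 in HMV-II and 9.07 in MeWo, and MS4A1 from 1.16 to 1.97. Keratinocyte markers summed to 2.72 to 6.02, with KRT15 at 2.84 in Colo679. Fibroblast-list markers summed to between 9.14 and 65.4 over 8 probes, with LUM at 53.1 in MeWo and FAP at 40.3 in Colo679.

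In unirradiated cells the lines differed most in the anti-apoptotic genes BCL2A1 and MCL1. The BCL2A1 reading was 179-fold higher in C32TG than in 92-1, where the probe was dim (median 20.8th percentile of all probes with a value, and 19.9th in HMV-I), and whether it stood above array background there was not measured. MCL1, which encodes a short-lived anti-apoptotic protein, was 7.67-fold higher in HMV-I than in 92-1. Its only probe is annotated with a single sequence that is not a RefSeq transcript, and no second probe could check this difference. BAX probe 248050 and BCL2L11 probe 243067 are annotated in the same way. The level differed between lines in 10 of the 14 member probes (moderated F over 6 lines on 12 means, 1 per line and beam set, limma), against 57.4% of all kept probes. The median range over lines was 0.92 on the log2 scale for the members and 0.92 for all probes.

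**Figure D1:**
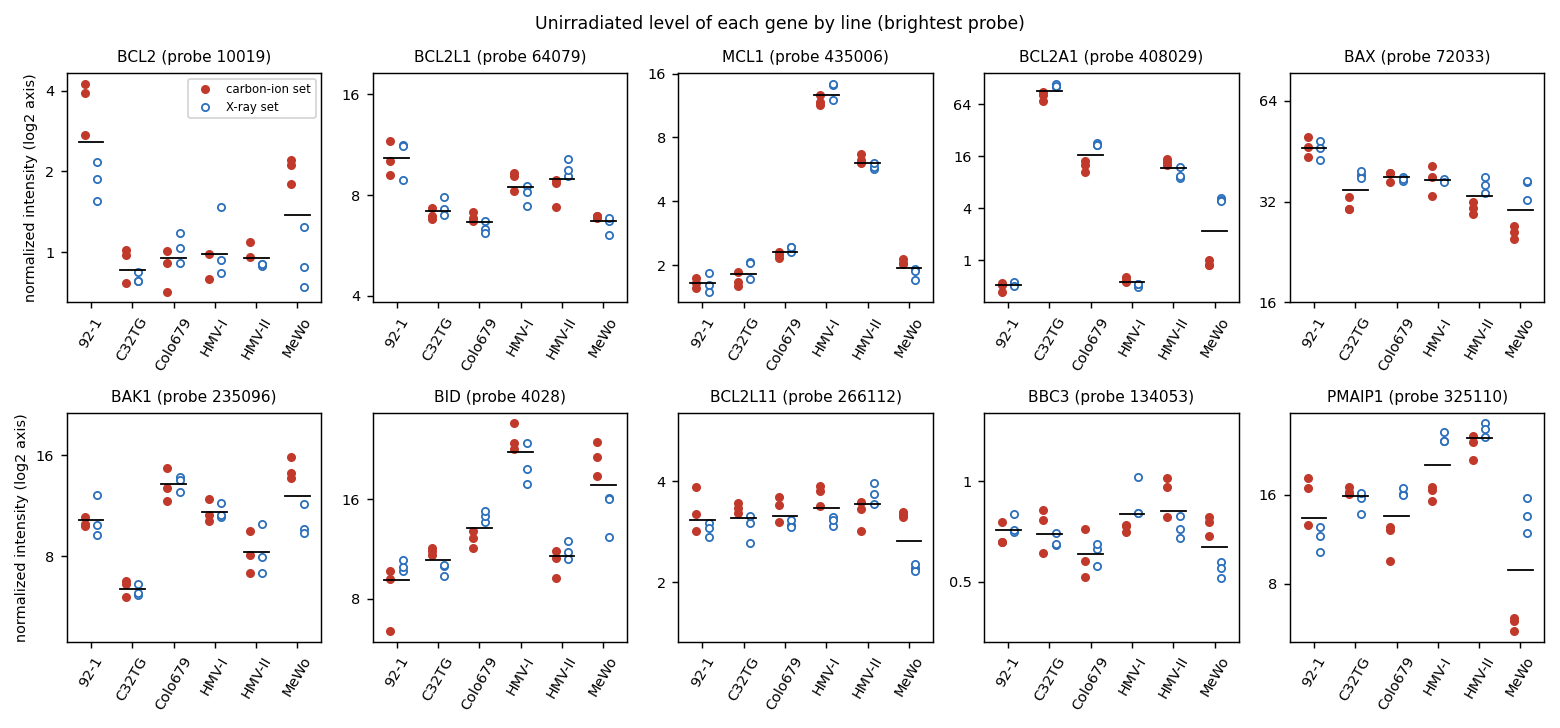
Normalized intensity (log2 axis) of each gene's brightest probe on the 6 unirradiated arrays of each line, with carbon-ion set arrays filled, X-ray set arrays open and the geometric mean as a line. BCL2A1 spans 0.511 in 92-1 to 91.7 in C32TG, MCL1 is highest in HMV-I (12.6), and in MeWo the carbon-ion and X-ray arrays separate for BCL2A1 and PMAIP1.

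On the unirradiated carbon-ion arrays of C32TG, BCL2A1 read 69.5, 83.0 and 87.9. The X-ray set of the same line read higher, at 100.5, 105 and 111. Colo679 read 10.5, 12.6 and 14.2 in the carbon-ion set and 21.4, 21.9 and 22.7 in the X-ray set. These Colo679 sets did not overlap. HMV-II lay at 12.8, 13.6 and 14.97 with carbon ions and 8.87, 9.46 and 12.2 with X-rays, which overlapped the Colo679 range. In MeWo the carbon-ion arrays read 0.875, 0.890 and 1.01 and the X-ray arrays 4.87, 4.97 and 5.29, so controls of a single line differed by 2.45 on the log2 scale. HMV-I stayed between 0.485 and 0.634 and 92-1 between 0.427 and 0.552, and these ranges overlapped. In order, BCL2A1 fell from C32TG (mean 91.7) through Colo679 (16.5), HMV-II (11.8) and MeWo (2.16) to HMV-I (0.551) and 92-1 (0.511), with the neighbours Colo679 and HMV-II, and HMV-I and 92-1, not separated by their arrays. The difference between lines had an adjusted p of 7.2e-06 (moderated F, limma), and the range of 7.49 on the log2 scale was at the 99.7th percentile of kept probes. MITF was at 149 in 92-1 and 210 in MeWo, both low in BCL2A1, and at 124 in C32TG. HMV-I was lowest in MITF (18.5) and also low in BCL2A1 (0.551). The order of the lines by MITF was not that by BCL2A1, and a link between these genes was not tested.

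MCL1 read 11.3, 11.7 and 12.6 in the carbon-ion set of HMV-I and 11.99, 14.2 and 14.3 in the X-ray set. HMV-II came next at 5.69 to 6.67 over its 6 arrays, apart from HMV-I above and from Colo679 (2.16 to 2.44) below, whose lowest array was next to the highest of MeWo (2.15). The other 3 lines, MeWo (mean 1.95), C32TG (1.82) and 92-1 (1.65), overlapped one another as neighbours, and the F was 101 (adjusted p = 4.3e-07).

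BCL2, the founding anti-apoptotic member, was highest in 92-1. There its carbon-ion arrays read 2.73, 3.91 and 4.24 and its X-ray arrays 1.55, 1.87 and 2.17. MeWo showed the same split, with 1.79, 2.11 and 2.21 against 0.744, 0.885 and 1.24. The sets did not overlap in either line. The other 4 lines had means of 0.856 to 0.982 and overlapped, with 2 of 3 arrays giving a value in the carbon-ion sets of HMV-I and HMV-II, and the F over lines was 5.76 (adjusted p = 0.0177), lost without the arrays numbered 3 (adjusted p = 0.058). BCL2L1, which encodes BCL-xL, differed by 1.56-fold through probe 64079 (highest in 92-1, adjusted p = 0.0311) and by 1.73-fold through probe 151012 (highest in HMV-II, adjusted p = 0.0178). Its probes ordered the lines differently, with a Pearson r of 0.10 over 36 group means, and the first lost its call on the values as deposited (adjusted p = 0.0606).

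**Figure D2:**
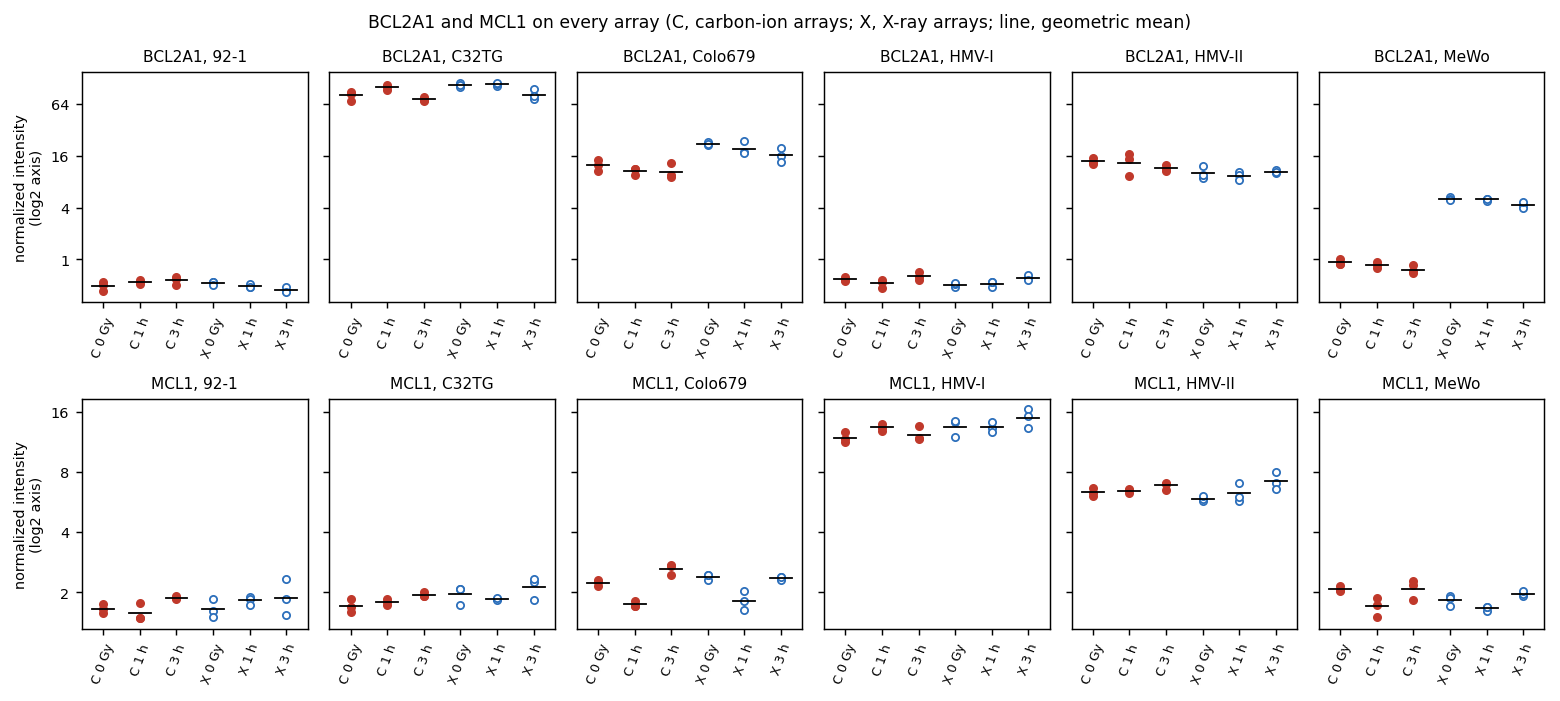
Normalized intensity (log2 axis) of BCL2A1 and MCL1 on every array, by line, beam and condition, with the geometric mean of each group as a line. The range of unirradiated BCL2A1 over lines, from 0.511 to 91.7, is wider than any of its changes after irradiation, and the MeWo carbon-ion and X-ray arrays of BCL2A1 stay apart at every time.

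Among the effectors, BAK1 was highest in Colo679 (11.7 to 14.7) and lowest in C32TG (6.05 to 6.75), a 2.05-fold span with an adjusted p of 0.00622. Neighbours in the order overlapped, apart from HMV-II (7.12 to 9.95) and C32TG. MeWo again split, at 13.7, 14.2 and 15.8 in the carbon-ion set against 9.37, 9.64 and 11.4 in the X-ray set. BAX gave different answers by probe: probe 304077, whose annotation lists several BAX transcripts, spanned 3.05-fold from Colo679 (22.8) to MeWo (7.50, adjusted p = 0.0209), and probe 248050 spanned 1.74-fold from 92-1 to MeWo (adjusted p = 0.0253). Probe 72033 spanned 1.53-fold and missed the threshold (adjusted p = 0.144).

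Of the BH3-only genes, BID, which caspase-8 cleaves to its active form, was 2.44-fold higher in HMV-I (mean 22.3) than in 92-1 (9.14), with an adjusted p of 0.00281. PMAIP1, an MCL1-binding member, was 2.80-fold higher in HMV-II (25.0) than in MeWo (8.92), with an adjusted p of 0.0479. That call was lost on the values as deposited (adjusted p = 0.0761) and without the arrays numbered 2 (adjusted p = 0.0504). The MeWo mean joined separate sets, at 5.51, 5.96 and 6.11 with carbon ions and 11.9, 13.5 and 15.6 with X-rays. HMV-I was split too, at 15.2, 16.7 and 17.0 against 24.3, 24.4 and 26.1. BCL2L11 and BBC3 were not called (adjusted p from 0.204 to 0.84 over 3 probes). BBC3 was dim, at 0.605 to 0.814 by line and a median 37.4th percentile of all probes with a value on an array.

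The unirradiated carbon-ion and X-ray sets were compared across lines to see how far the controls differed before exposure. None of the 14 probes was called, as none of the 32060 was (0% called, 1 member and 3116 probes with an unadjusted p under 0.05). Because set differences in single lines reached 2.45 (BCL2A1) and 1.21 (PMAIP1) on the log2 scale in MeWo, each irradiated group was compared only with the 0 Gy arrays of its own line and beam.

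After irradiation 0 to 3 of the 14 member probes passed the test across lines per beam and time, against 1.15% to 13.4% of all probes. All the members that passed rose. BAK1 rose at 3 h after both beams, by 0.32 ± 0.15 after carbon ions and 0.33 ± 0.14 after X-rays (mean log2 change ± SD, n = 6 lines). After carbon ions at 3 h, PMAIP1 rose by 0.40 ± 0.35 and BAX, through 1 of its 3 probes, by 0.24 ± 0.15. At 1 h after carbon ions BAK1 rose by 0.14 ± 0.07 and BCL2L11, through 1 of its 2 probes, by 0.20 ± 0.13. No member was called at 1 h after X-rays.

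In counts, 2 of 14 probes rose at 1 h after carbon ions (4.67% of all probes rose, 10.7% were called in either direction), 3 of 14 at 3 h after carbon ions (6.43% rose, 13.4% called), none with X-rays at 1 h (0.368% rose, 1.15% called) and 1 of 14 with X-rays at 3 h (2.96% rose, 7.15% called). No member fell, while 6.03%, 6.98%, 0.786% and 4.19% of all probes did. With X-rays at 1 h, 2 members and 4412 probes had an unadjusted p under 0.05, and a limma fit over all arrays called 2 members and 10% of all probes. The median member change at 3 h came to 0.13 with carbon ions and to 0.07 with X-rays, against 0.00 for all probes in both. The split of calls over all probes moved with the scaling: 48% of those at 3 h after carbon ions were higher, 76.5% with median centring and 38% on the values as deposited, and after X-rays the shares were 41.4%, 70.4% and 24.5%. At 1 h they were 43.6%, 66.9% and 50.8% after carbon ions and 31.9%, 47.5% and 31.8% after X-rays. No called member changed sign under either scaling.

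**Figure D3:**
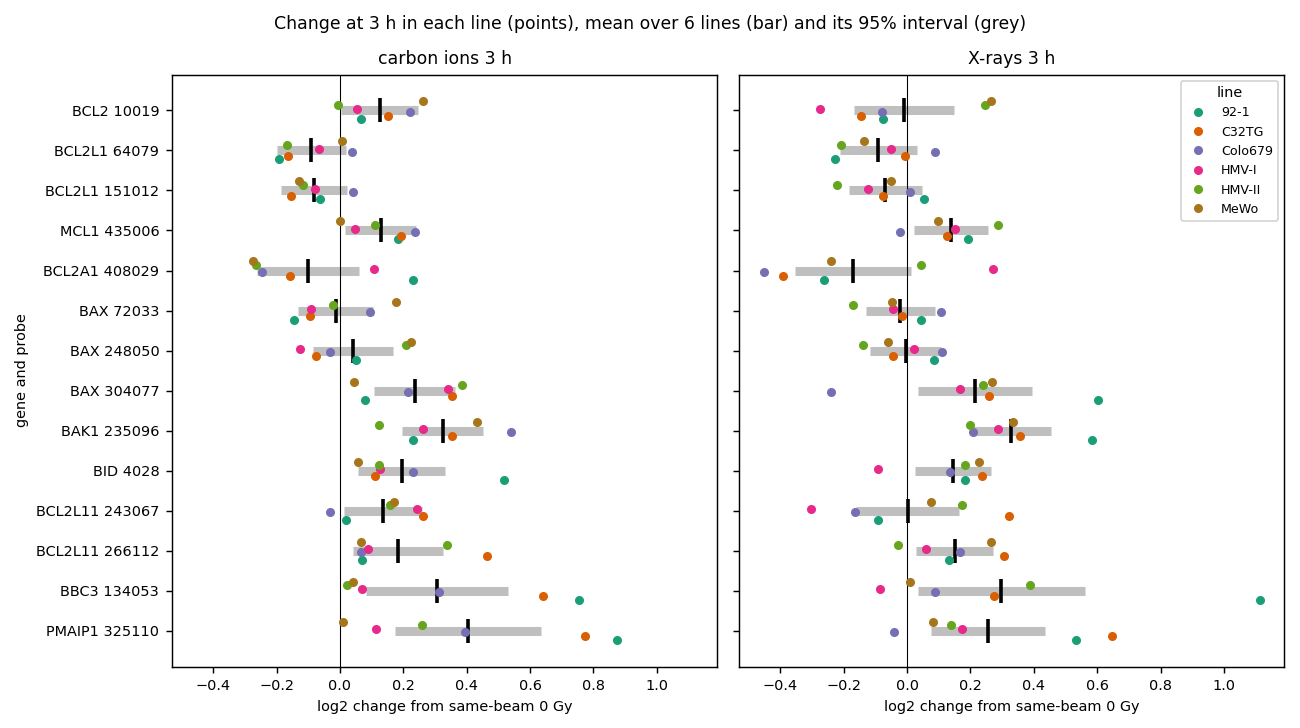
Log2 change at 3 h against the 0 Gy arrays of the same line and beam for the 14 member probes, with 1 point per line, the mean over 6 lines as a bar and its 95% interval in grey. BAK1 lies above 0 in all 6 lines with both beams, PMAIP1 reaches furthest right in 92-1 and C32TG and BBC3 in 92-1, and the 3 BAX probes do not move together.

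BAK1, which forms pores in the outer mitochondrial membrane, was higher at 3 h than at 0 Gy in each line. In Colo679 its unirradiated carbon-ion arrays read 11.7, 12.8 and 14.7 and its 3 h arrays 17.2, 19.6 and 20.01, with no overlap. With X-rays the same line went from 12.5, 13.5 and 13.8 to 14.9, 14.9 and 16.0. C32TG moved from 6.05, 6.63 and 6.75 to 8.10, 8.24 and 8.48 after carbon ions. The X-ray arrays of C32TG behaved alike, from 6.14, 6.21 and 6.62 to 7.82, 8.17 and 8.27. All of these groups were separate, and the ratio in C32TG was 1.28-fold with either beam.

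For 92-1 the carbon-ion arrays read 9.86, 9.96 and 10.5 before and 10.8, 11.6 and 13.3 at 3 h. The X-ray arrays read 9.26, 9.89 and 12.2 before and 14.6, 15.8 and 16.2 at 3 h, the larger change of this line (0.58 against 0.23). MeWo rose after carbon ions from 13.7, 14.2 and 15.8 to 18.6, 18.7 and 21.6. After X-rays the MeWo groups overlapped narrowly, at 9.37, 9.64 and 11.4 before and 11.4, 13.4 and 13.6 at 3 h. HMV-I went from 10.2, 10.6 and 11.8 to 12.4, 13.03 and 13.6 with carbon ions and from 10.4, 10.6 and 11.6 to 12.8, 13.3 and 13.8 with X-rays. HMV-II overlapped with both beams, at 7.13, 8.07 and 9.54 against 8.49, 9.05 and 9.25 and at 7.12, 7.96 and 9.95 against 9.35, 9.46 and 9.66.

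Across lines the BAK1 change at 3 h was higher in 6 of 6 lines with each beam (adjusted p = 0.00751 after carbon ions and 0.00725 after X-rays), and it was called in each of the 14 alternative settings run, with an adjusted p of at most 0.0292 with either beam. Within single lines BAK1 rose in 8 of 12 comparisons at 3 h, where 6.47% of tests over all probes and lines rose after carbon ions and 4.28% after X-rays. The largest was 0.58 ± 0.09 (SE) in 92-1 after X-rays (adjusted p = 0.00185), followed by 0.54 ± 0.09 in Colo679 after carbon ions (adjusted p = 9.29e-04). Neither HMV-II comparison was called (0.12 and 0.20), nor was 92-1 after carbon ions (0.23) or Colo679 after X-rays (0.21). Leaving out all arrays of 1 replicate number ended 6 of these 8 calls at least once, the exceptions being Colo679 and MeWo after carbon ions.

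At 1 h after carbon ions BAK1 had also risen (0.14 ± 0.07, 6 of 6 lines, adjusted p = 0.0409). That call was lost without C32TG (adjusted p = 0.0708), Colo679 (0.13), HMV-II (0.107) or MeWo (0.103), without the arrays numbered 1 (0.122) or 2 (0.193), and without the level filter (0.068). At 1 h after X-rays the change was 0.09 ± 0.16, higher in 4 of 6 lines (adjusted p = 0.519). Since 1 h and 3 h share their controls, they were compared on irradiated arrays alone, averaged over beams. There 2 of 14 members were higher at 3 h, against 2.51% of all probes higher and 4.51% called in either direction: BAK1 by 0.21 ± 0.08 (6 of 6 lines, adjusted p = 0.0093) and MCL1, described below.

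**Figure D4:**
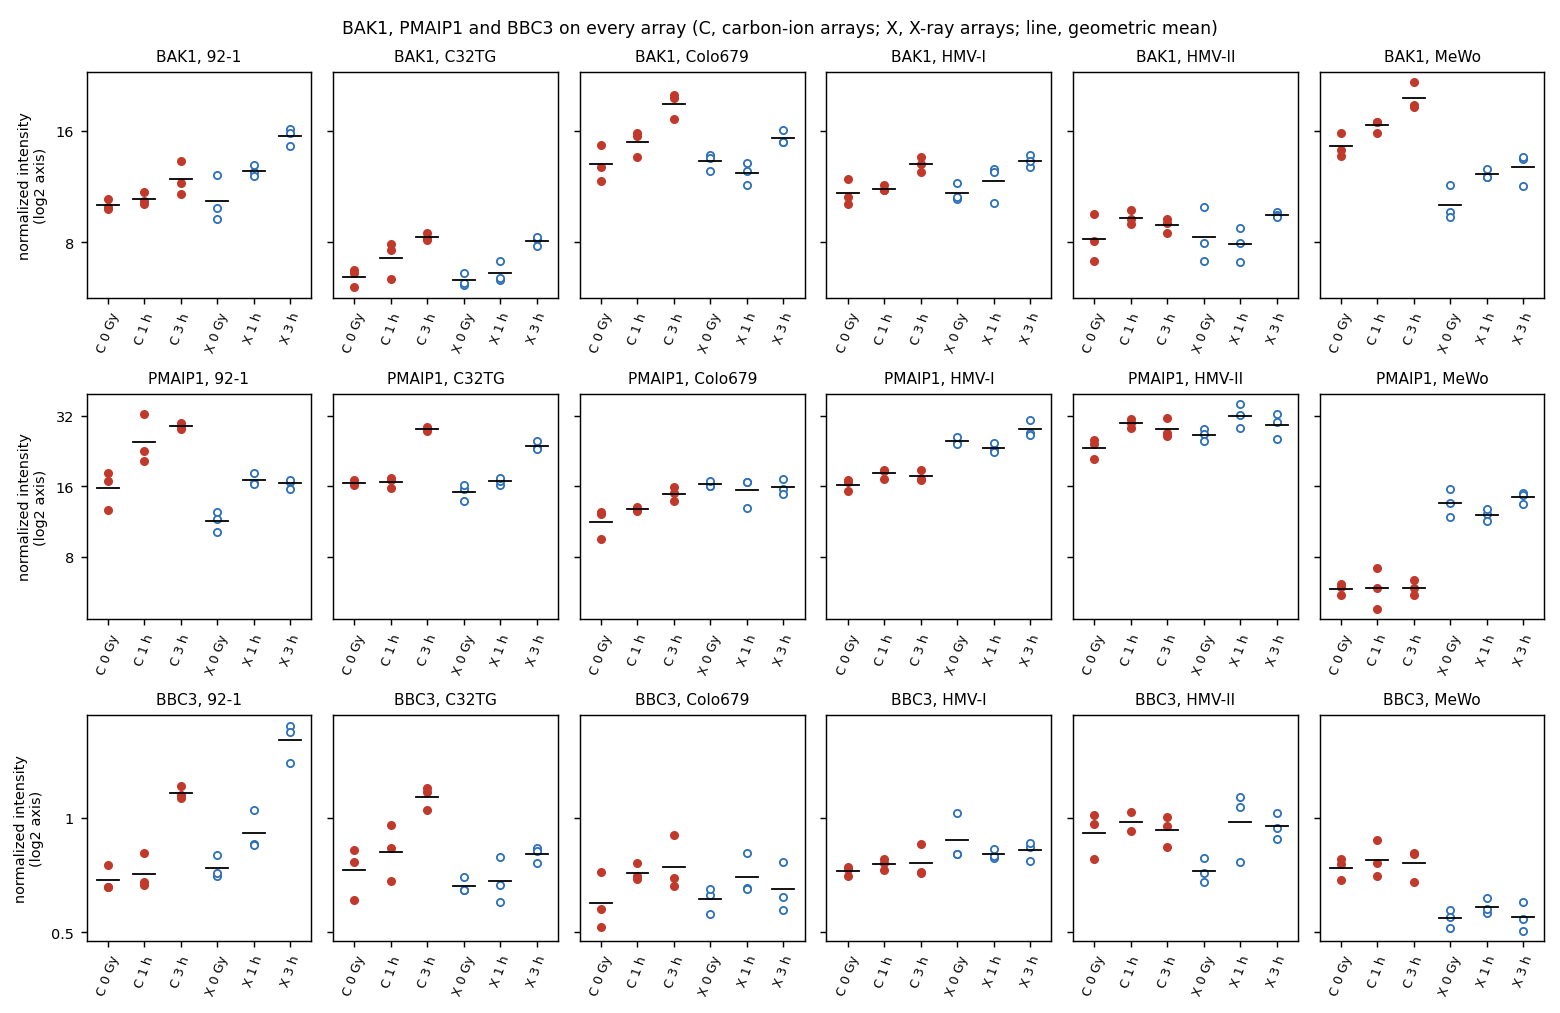
Normalized intensity (log2 axis) of BAK1, PMAIP1 and BBC3 on every array by line, with carbon-ion arrays filled, X-ray arrays open and the geometric mean of each group as a line. BAK1 is higher at 3 h than at 0 Gy in each line, PMAIP1 moves most in 92-1 and C32TG, and BBC3 moves most in 92-1.

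BAX, the second effector, depended on the probe read. Probe 304077 rose at 3 h after carbon ions (0.24 ± 0.15, 6 of 6 lines, adjusted p = 0.025), while the brightest probe, 72033, gave -0.01 ± 0.13 and probe 248050 gave 0.04 ± 0.15. The call was lost without Colo679 (adjusted p = 0.0609), HMV-I (0.0756), HMV-II (0.0766) or the arrays numbered 1 (0.114), and on the values as deposited (0.0767). After X-rays at 3 h the same probe gave 0.22 ± 0.27 (5 of 6 lines, adjusted p = 0.143).

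In HMV-II, BAX probe 304077 read 10.8, 11.4 and 11.8 on the unirradiated carbon-ion arrays and 13.5, 15.8 and 15.9 at 1 h. At 3 h it read 14.2, 14.8 and 15.4, again above every control array. HMV-I read 13.1, 14.8 and 17.2 before, 19.1, 19.4 and 20.2 at 1 h and 17.0, 19.2 and 20.9 at 3 h, so its 3 h arrays overlapped the controls. All 4 of these changes were called (0.34 to 0.41, adjusted p from 0.00688 to 0.0307), and each was lost without the arrays numbered 1 or 2. Colo679 after X-rays went the other way (23.9, 24.2 and 25.1 against 19.6, 20.4 and 22.1, a change of -0.24 that was not called). Probes 72033 and 248050 were called only in MeWo at 3 h after carbon ions (0.18 and 0.22), which was lost on the values as deposited and without the arrays numbered 1 or 2. These probes correlated with each other at r = 0.58 over the 24 changes and with probe 304077 at -0.44 and -0.16, as a description of values that share control arrays.

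**Figure D5:**
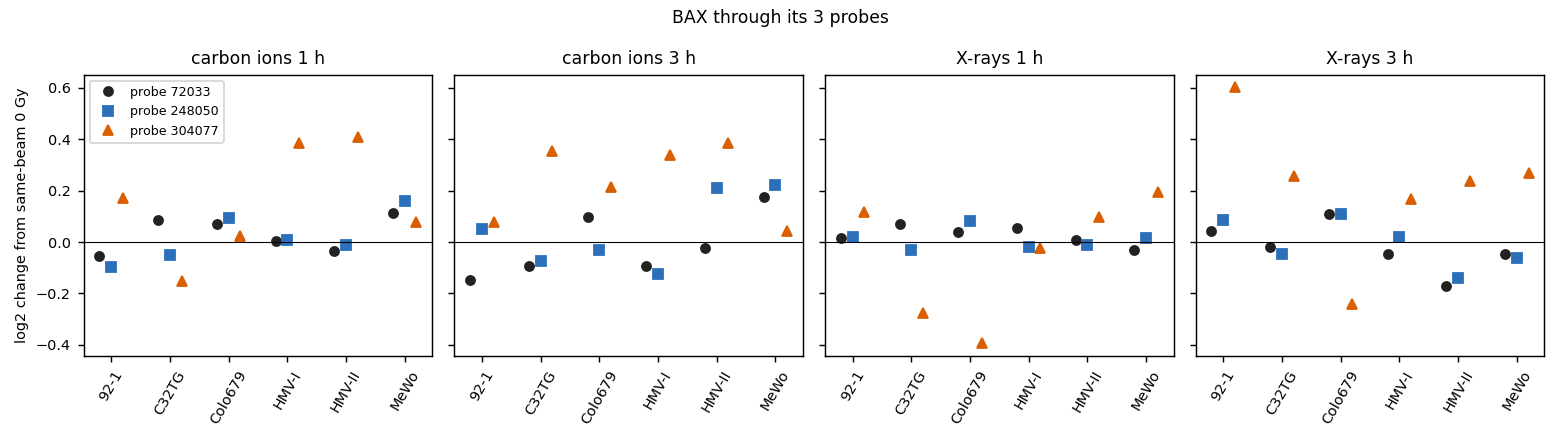
Log2 change of BAX against the 0 Gy arrays of the same line and beam, by line, for its 3 probes (circles 72033, squares 248050, triangles 304077). At 3 h after carbon ions the triangles lie above 0 in all 6 lines, and the circles and squares scatter on both sides of 0.

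PMAIP1, the BH3-only protein that neutralises MCL1 and BCL2A1, was called in 92-1, C32TG and Colo679. C32TG read 16.2, 16.4 and 17.0 unirradiated and 27.6, 28.4 and 28.7 at 3 h after carbon ions. With X-rays it went from 13.8, 15.6 and 16.2 to 23.1, 23.3 and 25.1. Both 3 h groups stood clear of their controls. At 1 h C32TG read 15.8, 17.1 and 17.4 with carbon ions, on both sides of its controls (0.02, not called). With X-rays it read 16.2, 16.9 and 17.4, just above its controls (0.15, not called).

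The 92-1 line was already higher at 1 h: its carbon-ion arrays read 12.7, 16.9 and 18.2 before, 20.6, 22.6 and 32.6 at 1 h and 28.0, 28.8 and 29.9 at 3 h. After X-rays it went from 10.2, 11.6 and 12.4 to 16.3, 16.5 and 18.2 at 1 h and 15.7, 16.8 and 17.0 at 3 h. None of these irradiated arrays overlapped its controls, though the X-ray change at 1 h missed the threshold (0.58, adjusted p = 0.0515). Colo679 rose after carbon ions at 3 h, from 9.55, 12.2 and 12.5 to between 13.8 and 15.9, but read 16.0, 16.1 and 16.8 before and 14.8, 15.7 and 17.2 after X-rays. In MeWo the carbon-ion groups overlapped at 5.51 to 6.11 and 5.48 to 6.36. HMV-I and HMV-II gave changes at 3 h between 0.11 and 0.26 on the log2 scale, none called.

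Over lines, PMAIP1 rose at 3 h after carbon ions (0.40 ± 0.35, 6 of 6 lines, adjusted p = 0.0308) and gave 0.26 ± 0.27 after X-rays (5 of 6 lines, adjusted p = 0.0857). The carbon-ion call was lost without 92-1 (adjusted p = 0.0866), C32TG (0.062), Colo679 (0.0724), HMV-II (0.0605) or the arrays numbered 1 (0.0623). The X-ray value was called without Colo679 (0.0411). Within lines 5 of 12 comparisons at 3 h rose: 0.88 ± 0.14 (SE) and 0.53 ± 0.14 in 92-1 and 0.77 ± 0.06 and 0.65 ± 0.06 in C32TG, carbon ions first, and 0.39 ± 0.11 in Colo679 after carbon ions. The C32TG calls (adjusted p = 1.96e-07 and 2.82e-06) and the 92-1 carbon-ion call at 3 h (0.00199) were kept in every alternative. The 92-1 rise at 1 h after carbon ions (0.65 ± 0.14, adjusted p = 0.0193) was lost without any 1 of the 3 replicate numbers, and the 92-1 rise after X-rays had an adjusted p of 0.0571 with the replicate number as a block.

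BBC3, which binds every anti-apoptotic member, rose in 92-1 with both beams. Its unirradiated carbon-ion arrays read 0.657, 0.658 and 0.753 and its 3 h arrays 1.13, 1.15 and 1.21. With X-rays the values went from 0.703, 0.717 and 0.798 to 1.39, 1.68 and 1.74, which at 1.11 ± 0.11 (SE) on the log2 scale was the largest within-line change of any member. C32TG rose after carbon ions from 0.610, 0.767 and 0.822 to 1.05, 1.16 and 1.20. These 3 groups lay clear of their controls, with adjusted p of 9.22e-04, 1.06e-05 and 0.00366, and the last was lost without the arrays numbered 1 or 2. In HMV-I (0.717, 0.720 and 0.855 at 3 h after carbon ions against 0.703, 0.732 and 0.741) and MeWo (0.679, 0.802 and 0.810 against 0.687, 0.755 and 0.779) the groups overlapped. Across lines BBC3 missed the threshold with both beams at 3 h (0.31 ± 0.32, adjusted p = 0.069, and 0.30 ± 0.43, adjusted p = 0.164), and median centring called the first (0.0204). The probe is dim, and how far array background limits its folds was not tested. Its normalized log2 mean over all arrays was -0.36, just above the level filter's cutoff of -0.41. Unirradiated means were below that cutoff in 92-1 (-0.49), C32TG (-0.53), Colo679 and MeWo, and above it in HMV-I and HMV-II. The irradiated arrays where BBC3 was high thus counted towards its passing. Without the level filter the 92-1 and C32TG calls were kept.

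BCL2L11, whose protein BIM engages all anti-apoptotic members, rose in C32TG at 3 h through both of its probes and with both beams. Probe 266112 went from 3.21, 3.33 and 3.45 to 4.48, 4.60 and 4.69 after carbon ions (0.46 ± 0.08 SE, adjusted p = 7.13e-04). After X-rays it went from 2.62, 3.01 and 3.15 to 3.53, 3.62 and 3.66 (0.30 ± 0.08, adjusted p = 0.0175). The dimmer probe 243067 gave 0.26 and 0.32 in the same comparisons (adjusted p = 0.0253 and 0.00729). The first of these calls was kept in every alternative, and the other 3 were lost when arrays of some replicate number were left out. Probe 266112 also rose in MeWo after X-rays at 3 h, from 2.16, 2.21 and 2.26 to 2.52, 2.62 and 2.83 (0.26 ± 0.07, adjusted p = 0.041), lost without any 1 replicate number.

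Across lines BCL2L11 was called at 1 h after carbon ions, where probe 266112 gave 0.20 ± 0.13 in 6 of 6 lines (adjusted p = 0.0274) and probe 243067 gave 0.07 ± 0.12 (adjusted p = 0.387). The call was lost without 92-1 (adjusted p = 0.083), Colo679 (0.0565), HMV-I (0.0785), HMV-II (0.08) or any 1 replicate number (0.0524 to 0.0639), on the values as deposited (0.0633) and without the level filter (0.0518). At 1 h after X-rays probe 266112 was higher in 6 of 6 lines, by 0.15 ± 0.04, with an adjusted p of 0.102.

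BID was higher at 3 h after carbon ions in 6 of 6 lines by 0.19 ± 0.17 (adjusted p = 0.0611, with 2 of 3 arrays giving a value in 92-1, HMV-I, HMV-II and MeWo), and at 1 h by 0.12 ± 0.05 (adjusted p = 0.0601). Neither passed. The only call within a line was in 92-1 at 3 h after carbon ions, with 6.38, 9.18 and 9.71 before and 11.6 and 12.2 on the 2 arrays with a value (0.52 ± 0.14 SE, adjusted p = 0.0277). It was lost without the arrays numbered 1 (adjusted p = 0.0832), the one such fit the missing value allowed, with the replicate block (0.0557) and on the values as deposited (0.0846).

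Among the anti-apoptotic genes MCL1 moved with time. In Colo679 it read 2.16, 2.23 and 2.30 unirradiated, 1.70, 1.71 and 1.81 at 1 h after carbon ions and 2.44, 2.69 and 2.75 at 3 h. The X-ray arrays of Colo679 read 2.31, 2.43 and 2.44, then 1.63, 1.80 and 2.03, then 2.30, 2.38 and 2.39. The 1 h arrays were thus below every control with both beams. These falls were -0.36 ± 0.08 and -0.40 ± 0.08 (SE, adjusted p = 0.0228 and 0.023), and the rise at 3 h after carbon ions was 0.24 ± 0.08 (adjusted p = 0.046). All 3 calls were lost without 2 or more of the replicate numbers. MeWo also read lower at 1 h, at 1.501, 1.73 and 1.88 against 2.03, 2.05 and 2.15 with carbon ions, without a call.

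Averaged over beams, MCL1 was higher at 3 h than at 1 h in 6 of 6 lines, by 0.20 ± 0.16 (adjusted p = 0.0492). That call was lost without 92-1 (adjusted p = 0.0851), C32TG (0.0838), Colo679 (0.0914), HMV-II (0.0884) or MeWo (0.116), without the arrays numbered 1 (0.0545) or 3 (0.122), on the values as deposited (0.0512) and without the level filter (0.0563). The line means ran from 0.02 in HMV-I, the line with the highest MCL1, to 0.48 in Colo679. Against 0 Gy, MCL1 gave 0.13 ± 0.09 and 0.14 ± 0.10 at 3 h (adjusted p = 0.112 and 0.142).

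BCL2A1 was the member with falls at 3 h. In C32TG, its brightest line, it fell after X-rays from 100, 105 and 111 to 71.4, 77.5 and 94.3 (-0.39 ± 0.09 SE, adjusted p = 0.0138). Colo679 fell after X-rays from 21.4, 21.9 and 22.7 to 13.6, 15.7 and 19.4 (-0.45 ± 0.15, adjusted p = 0.0436). MeWo fell after carbon ions from 0.875, 0.890 and 1.01 to 0.693, 0.742 and 0.863 (-0.27 ± 0.09, adjusted p = 0.045). The 3 h arrays lay below all controls in each case. With median centring all 3 missed the threshold (adjusted p = 0.134, 0.0606 and 0.307), and each was lost without the arrays numbered 2 or 3. The MeWo fall had an adjusted p of 0.0532 with the replicate block. At 1 h after carbon ions C32TG rose from 69.5, 83.0 and 87.9 to 92.9, 99.6 and 105 (0.31 ± 0.09, adjusted p = 0.0381), lost with median centring (0.0661) and without any 1 replicate number. HMV-I and 92-1, at or below 0.720 on all arrays, had no call. Across lines the 3 h changes were -0.10 ± 0.22 (carbon ions) and -0.17 ± 0.28 (X-rays) (adjusted p = 0.377 and 0.249).

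BCL2 and BCL2L1 had no call in any of their 24 comparisons per probe. Changes within lines ran from -0.27 to 0.27 for BCL2, from -0.23 to 0.14 for BCL2L1 probe 64079 and from -0.22 to 0.11 for probe 151012. The 95% intervals of the mean over lines at 3 h were 0.00 to 0.25 (carbon ions) and -0.17 to 0.15 (X-rays) for BCL2, and for probe 64079 -0.20 to 0.02 and -0.21 to 0.03.

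Over all lines, 336 within-line comparisons of member probes gave 31 rises and 5 falls, against 3.32% and 3.73% of all tests. By contrast and direction, 17 of 84 rose at 3 h after carbon ions (6.47% of all tests), 10 of 84 at 3 h after X-rays (4.28%), 4 of 84 at 1 h after carbon ions (1.91%) and none of 84 at 1 h after X-rays (0.607%). Probes of a gene share a target, so these are not independent. C32TG had most, with 5 of 14 probes up at 3 h after carbon ions (3.82% of its kept probes) and 4 after X-rays (2.06%). In 92-1 there were 3 with each beam (4.38% and 2.8%), and MeWo had 3 and 2 (9.39% and 1.97%). Colo679 had 3 and 0 (9.76% and 9.81%), HMV-I 2 and 1 (7.53% and 7.68%) and HMV-II 1 and 0 (3.94% and 1.34%). Of the 36 calls, 8 were kept in all 3 fits that left out a replicate number, which hold 2 arrays per group, and 28 were lost in at least 1. On the values as deposited 13 of the 36 calls were lost (adjusted p from 0.0506 to 0.525): at 3 h after carbon ions BAK1 in HMV-I and MeWo, BAX probes 72033 and 248050 and BCL2A1 in MeWo, BID in 92-1, and MCL1 and PMAIP1 in Colo679. At 3 h after X-rays BAK1 in MeWo, BCL2A1 in C32TG and BCL2L11 probe 266112 in C32TG and MeWo were lost, and at 1 h after carbon ions BAX probe 304077 in HMV-II. Without the level filter 4 were lost (adjusted p from 0.0514 to 0.0615): BAX probe 72033 in MeWo and MCL1 in Colo679 at 3 h after carbon ions, BCL2A1 in C32TG at 1 h after carbon ions, and PMAIP1 in 92-1 at 3 h after X-rays.

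Carbon ions and X-rays were compared by the difference of their changes in each line. No member was called at 1 h or 3 h, nor was any of the 32060 probes (0% called at both times, with 2421 and 1430 probes and 1 and 0 members at an unadjusted p under 0.05). A limma fit over all arrays called 0.911% and 1.15% of all probes for this difference. With the replicate number as a block, that fit called 0 members at both times (1.25% and 1.48% of all probes). At 3 h the difference, carbon ions minus X-rays, was 0.00 for BAK1 (95% interval -0.18 to 0.18), 0.15 for PMAIP1 (-0.02 to 0.32) and 0.01 for BBC3 (-0.22 to 0.24). In 92-1 the order of these genes was not shared: BAK1 and BBC3 changed more after X-rays and PMAIP1 more after carbon ions, which was not tested within the line.

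Whether the lines differed in their 3 h change was tested on 12 changes, 1 per line and beam. No member passed, against 0.197% of all probes, and 2 members and 3509 probes had an unadjusted p under 0.05. These were PMAIP1 (moderated F = 9.28, adjusted p = 0.152) and BBC3 (moderated F = 7.49, adjusted p = 0.222). With the spread between arrays in place of the spread between beams, limma called 3 members after carbon ions (22.7% of all probes) and 4 after X-rays (20.4%). PMAIP1 and BBC3 were among both (adjusted p of 1.22e-05 and 0.00187 for PMAIP1, and 8.73e-04 and 2.78e-06 for BBC3). BAK1 gave an F of 0.83 (adjusted p = 0.804).

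Other genes of the pathway are given by count. These genes, and the p53 targets and markers below, were each read through their brightest kept probe. Their calls are given in the main setting only, so how far they depend on probe or processing is not shown. Of all probes, 6.43% rose and 6.98% fell at 3 h after carbon ions, and 2.96% rose and 4.19% fell at 3 h after X-rays. At 1 h after carbon ions 6.03% of all probes fell, and 2% were lower at 3 h than at 1 h. Of 15 measured other BCL2-related genes, BNIP2 rose at 3 h after carbon ions (0.18 ± 0.11, 6 of 6 lines, adjusted p = 0.045), and BAD, a BH3-only sensitizer, fell from 1 h to 3 h (-0.18 ± 0.11, 6 of 6 lines, adjusted p = 0.0341). Of 14 measured genes acting after the mitochondrial step, CYCS, which encodes cytochrome c, fell at 1 h and 3 h after carbon ions (-0.57 ± 0.45 and -0.82 ± 0.56) and at 3 h after X-rays (-0.53 ± 0.48, adjusted p from 0.0104 to 0.0283), and no other passed against 0 Gy. AIFM1, a mitochondrial flavoprotein, and CYCS were lower at 3 h than at 1 h (-0.14 ± 0.05 and -0.24 ± 0.17). Of 7 tested regulators of member genes or proteins, FOXO3, a transcription factor known to drive BCL2L11, rose at 3 h after X-rays (0.23 ± 0.16, 5 of 6 lines, adjusted p = 0.0435).

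Among 6 reference p53 targets, 4 rose at 3 h after carbon ions (6.43% of all probes) and 3 after X-rays (2.96%). CDKN1A, the cyclin-dependent kinase inhibitor p21, rose by 1.20 ± 0.74 and 1.18 ± 0.81 (6 of 6 lines), and MDM2, the ubiquitin ligase of p53, by 0.54 ± 0.46 and 0.65 ± 0.53. The leukocyte-list gene MS4A1 also rose at 3 h after carbon ions (0.30 ± 0.13, 6 of 6 lines, adjusted p = 0.00956) and from 1 h to 3 h (0.21 ± 0.15, adjusted p = 0.0453), at unirradiated levels of 1.16 to 1.97, and its part in any member's change was not tested. Of the lists for other cell types, only 2 leukocyte, 1 keratinocyte and 7 fibroblast genes had a kept probe and were tested. None of these but MS4A1 was called in any comparison, and changes of the remaining markers were not tested.

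Genes whose values ran most like a member's are named as a description. Over the 24 changes, which share control arrays between 1 h and 3 h, ACADS (r = 0.81), RC3H2 (0.75) and MAFF (0.74) followed BAK1, and GADD45A (0.85), SRSF8 (0.83) and TC2N (0.80) followed PMAIP1. Over the 12 unirradiated means ART3 (0.98), APMAP (0.98) and UHMK1 (0.96) followed BCL2A1, and MIR181A2HG (0.96), WDR45 (0.96) and HOXC10 (0.95) followed MCL1. Those 12 means come from 6 lines.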

How the data were processed

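The authors deposited 1 table of spot intensity per probe on a linear scale, per the labels' single-colour CodeLink protocol and the values. What scaling, background correction and spot filter the authors applied is not given in the sources used here. Probes were named from the platform annotation, with symbols matched to RefSeq. Intensities were taken to log2, probes were kept with at most 10% missing values, a mean above the 40th percentile and a value in every group (32060 of 54359), and kept probes were quantile-normalized. Moderated statistics from limma 3.58.1 under R 4.3.3 (lmFit, then eBayes with an intensity trend; two-sided; Benjamini-Hochberg over all kept probes) tested 1 value per line across 6 lines, 6 groups of 18 arrays within a line (probes with at least 2 values per group) and F over lines. Probes fitted within a line numbered 31883 to 32014. Members, gene lists, motifs and tests were chosen with earlier results of these data known. All 10 genes and each of their probes are reported. Pathway genes were named where called across lines, and CDKN1A and MDM2 as references. Like-patterned genes were the 3 with the highest Pearson r. On simulated data of 12000 probes, a shift of 0.3 was recovered in 72% (carbon ions 3 h), 75% (X-rays 3 h) and 97% (3 h minus 1 h) of changed probes. False calls numbered 10, 13 and 13 among 11800 unchanged probes (5.49%, 6.91% and 6.19% of all calls made). For the F over lines of the 3 h change, a shift of 1 in 3 of 6 lines was recovered in 99.5%, with 25 false calls (11.2%). The simulated spread between lines was the same for all probes and smaller than that of PMAIP1 and BBC3 at 3 h. Recovery for genes of such spread was not measured. Alternatives were 2 other scalings, no level filter, probes with all values, each replicate number or line left out, all arrays, a replicate block and each gene's other probes. With 3 arrays per group, their number limits precision.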

Additional observations from a re-analysis of the deposited data

Results flagged for a closer look

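Over 140 sets of 6 values, or 5 in 2 of them (56 of line changes, 84 of unirradiated arrays), 7 had 1 value far from the rest, and chance gives about 1 in 20, which is 7. Among the line changes, BCL2L1 probe 64079 at 1 h after carbon ions was 0.1437 in MeWo against -0.1618 to -0.0547 in the other lines. BID at 3 h after X-rays was -0.0921 in HMV-I against 0.134 to 0.2354 in the other lines.

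Among unirradiated arrays, BCL2L1 probe 151012 read 3.10 on the first X-ray array of HMV-I, against 3.48 to 3.69 on the other 5. BCL2L1 probe 64079 read 6.10 on the third X-ray array of MeWo, against 6.70 to 6.92. BAX probe 304077 read 18.3 on the first carbon-ion array of Colo679, against 22.3 to 25.1. BID read 6.38 on the third carbon-ion array of 92-1, against 9.18 to 10.5, and that array enters the BID rise of 92-1 at 3 h. BBC3 read 1.03 on the first X-ray array of HMV-I, against 0.703 to 0.803. No cause was tested.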

How the results depend on the processing

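Apart from reading a gene through another of its probes, no called member value changed sign under any setting run. Among values with an adjusted p of 0.1 or more, 129 of 1372 across lines and 175 of 2203 within lines did, and none of these was called there. The fit on all arrays, whose spread is that between arrays, called 5 members at 1 h (26.8% of all probes) and 10 at 3 h (43.5%) after carbon ions, 2 at 1 h (10%) and 9 at 3 h (31.3%) after X-rays, 6 for 3 h minus 1 h (27.2%) and 8 between unirradiated sets (55.3%), and 3 (carbon ions, 22.7%) and 4 (X-rays, 20.4%) for the change between lines. With the replicate number as a replicate block in that fit the counts were the same 5, 10, 2, 9, 6 and 8. Median centring called 5 and 6 members after carbon ions at 1 h and 3 h (16.3% and 22.1% of all probes) and 3 at 3 h after X-rays (11.4%). Without the level filter 0 were called at 1 h after carbon ions (2 in the report; 8450 of 32060 probes and 6 members had an unadjusted p under 0.05 by limma with the filter) and 1 for 3 h minus 1 h. The values as deposited called 1 for 3 h minus 1 h and 1 for the change between lines (PMAIP1, adjusted p = 0.0358). With probes that had all values, 2 were called within lines at 1 h after X-rays.

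Leaving out 1 replicate number or 1 line gave 0 to 2 members at 1 h after carbon ions, 1 to 3 at 3 h after carbon ions, 1 to 3 at 3 h after X-rays (3 without Colo679), 1 to 2 for 3 h minus 1 h and 9 to 10 between unirradiated lines. Within lines the ranges were 0 to 2 and 6 to 13 after carbon ions and 0 to 2 and 3 to 7 after X-rays. These fits hold fewer arrays or lines. Through its other probes BAX gave 0.0419 (248050, not called) and 0.24 (304077, called) at 3 h after carbon ions against -0.01 (not called), and probe 304077 gave -0.0470 at 1 h and 0.22 at 3 h after X-rays against 0.03 and -0.02. BCL2L11 gave -0.0253 through probe 243067 at 1 h after X-rays against 0.15. The cause was not tested.

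Of 36 calls within lines, 33 were kept with the replicate block, 32 with median centring, 23 on the values as deposited, 32 without the level filter and 35 of 35 with all values. Arrays of the same replicate number deviated together little (median correlation of -0.01 to 0.09 by line), so the number was not taken as a pairing. HMV-II stood apart, at 0.09 for the same number against -0.04 for different numbers. There 20 of 45 same-number pairs exceeded 0.1, against 6 to 11 of 45 in the other lines, and single pairs reached 0.39 in 92-1. How far array background limits the folds of dim readings, such as BBC3 and BCL2A1 in 92-1 and HMV-I, was not tested, and the scaling of the deposited values is unknown.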
